A study of Mus musculus with 8 samples.

Results

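The genes of respiratory complex I were followed in cultured mouse muscle progenitors after melatonin or vehicle. They were chosen by name alone: every protein-coding gene whose symbol starts with Nduf, then a, b, c, s or v, then a number, and every gene whose symbol starts with mt-Nd. This gave 44 of the 20781 genes in the deposited counts, of which 37 lie on nuclear chromosomes and 7 on the mitochondrial genome. The name rule itself uses no measured value, but it was set with earlier results of these data known. Ndufab1, the mitochondrial acyl carrier protein that also sits in the complex, falls outside the name pattern, and Ndufb1-ps is annotated as non-coding, so neither is a member. Ndufa4 and Ndufa4l2 match by name although later structures place Ndufa4 in cytochrome c oxidase (complex IV), and Ndufa4l2 is its paralog.

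Complex I is the entry point of electrons from NADH into the respiratory chain of the inner mitochondrial membrane. Its matrix arm, whose core subunits are all nuclear-encoded in mammals, takes electrons from NADH through a flavin and a row of iron-sulfur clusters to ubiquinone. Its membrane arm, whose core subunits are all encoded by the mitochondrial genome, pumps protons, and a shell of nuclear-encoded accessory subunits surrounds both arms. The enzyme is therefore built from transcripts of separate genomes, the mitochondrial ones being cut from long transcripts that cover most of the circle.

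The cells were fibro-adipogenic progenitors (FAPs), resident mesenchymal cells of muscle from which fat cells and fibroblasts arise. They came from 3 uninjured hindlimb muscles, the quadriceps, the gastrocnemius and the tibialis anterior, of wild-type male C57BL/6 mice. After 48 h in culture they received vehicle (4 libraries) or melatonin (4 libraries), the pineal hormone, for 24 h in vitro. The labels call the libraries of a group biological replicates and do not say whether each came from its own animals or culture. No melatonin dose and no mouse age are given in the sources used here.

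Library totals ran from 35584931 to 52401153 counts. Levels are given as CPM, read counts brought to a common library size, after TMM scaling with factors of 0.916 to 0.974 in vehicle and 1.05 to 1.08 in melatonin. All 5 FAP markers were detected, and their summed level was 2465 to 2548 CPM in vehicle and 1508 to 1783 CPM in melatonin; Pdgfra, the surface receptor that defines FAPs, stood at 569.6 ± 52.2 and 465 ± 74.0 CPM (SD, n = 4 each). Among the 5 FAP markers Dcn fell (910.6 ± 84.5 to 350.7 ± 42.0 CPM) and Ly6a fell (336 ± 32.8 to 224.4 ± 21.8 CPM, SD, n = 4). Pdgfra, Pdgfrb and Cd34 did not pass edgeR's test. Adipocyte markers rose in 6 of the 6 genes analysed, from a summed 188 to 219.5 CPM to 1024 to 1343 CPM. The adipocyte marker Lep and the myogenic markers Pax7 and Myf5 were not analysed here. Summed macrophage markers were 107 to 157.5 and 61.2 to 136 CPM, myogenic markers 44.6 to 61.4 and 25.6 to 96.2 CPM, endothelial markers 29.5 to 35.97 and 45.1 to 54.2 CPM, and myofibre markers 70.8 to 97.7 and 62.3 to 222 CPM. Within these lists Tek rose (17.1 ± 1.51 to 35.3 ± 3.61 CPM) and Vwf fell (2.48 ± 0.770 to 0.576 ± 0.383 CPM, SD, n = 4) among 5 endothelial genes, C1qa rose and Csf1r fell among 6 macrophage genes, and Acta1 rose among 5 myofibre genes. The other analysed members of the macrophage, myogenic, endothelial and myofibre lists did not pass edgeR's test. Melatonin 4 stood apart from melatonin 1 to 3, with 5.08% of its counts in ribosomal protein genes against 3.53% to 4.03% in the other 7 libraries, and with the lowest macrophage, myogenic and myofibre sums.

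All 44 members passed the filter on low counts and were tested among 16565 genes with edgeR's quasi-likelihood test and Benjamini-Hochberg adjustment. Every one of the 7 mitochondrial members rose with melatonin, with log2 fold changes from 0.71 to 1.13 and a median of 0.82. Of the 37 nuclear members 13 rose, 1 fell and 23 did not pass the test, and their median log2 fold change was 0.20. Without Ndufa4 and Ndufa4l2, 12 of 35 rose and 0 fell, with a median of 0.20. Over all tested genes 36.5% passed, 18.1% higher and 18.5% lower, with a median of 0.014. Among the 6558 genes whose mean level lay within the range of the nuclear members, 19.5 to 229 CPM, 21.6% were higher and 19.8% lower. At an unadjusted p under 0.05 edgeR gave 16 nuclear members higher and 1 lower, and DESeq2 called 13 and 1 after adjustment, the lower one being Ndufa4l2. All 4 melatonin libraries were above all 4 vehicle libraries in 7 of 7 mitochondrial and 11 of 37 nuclear members, against 18.5% of all tested genes and 21.9% of those in the nuclear range. In 33 of the 37 nuclear members the estimate was positive, and the smallest mitochondrial estimate, 0.71 for mt-Nd5, was above the largest nuclear one, 0.61 for Ndufa12.

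**Figure D1:**
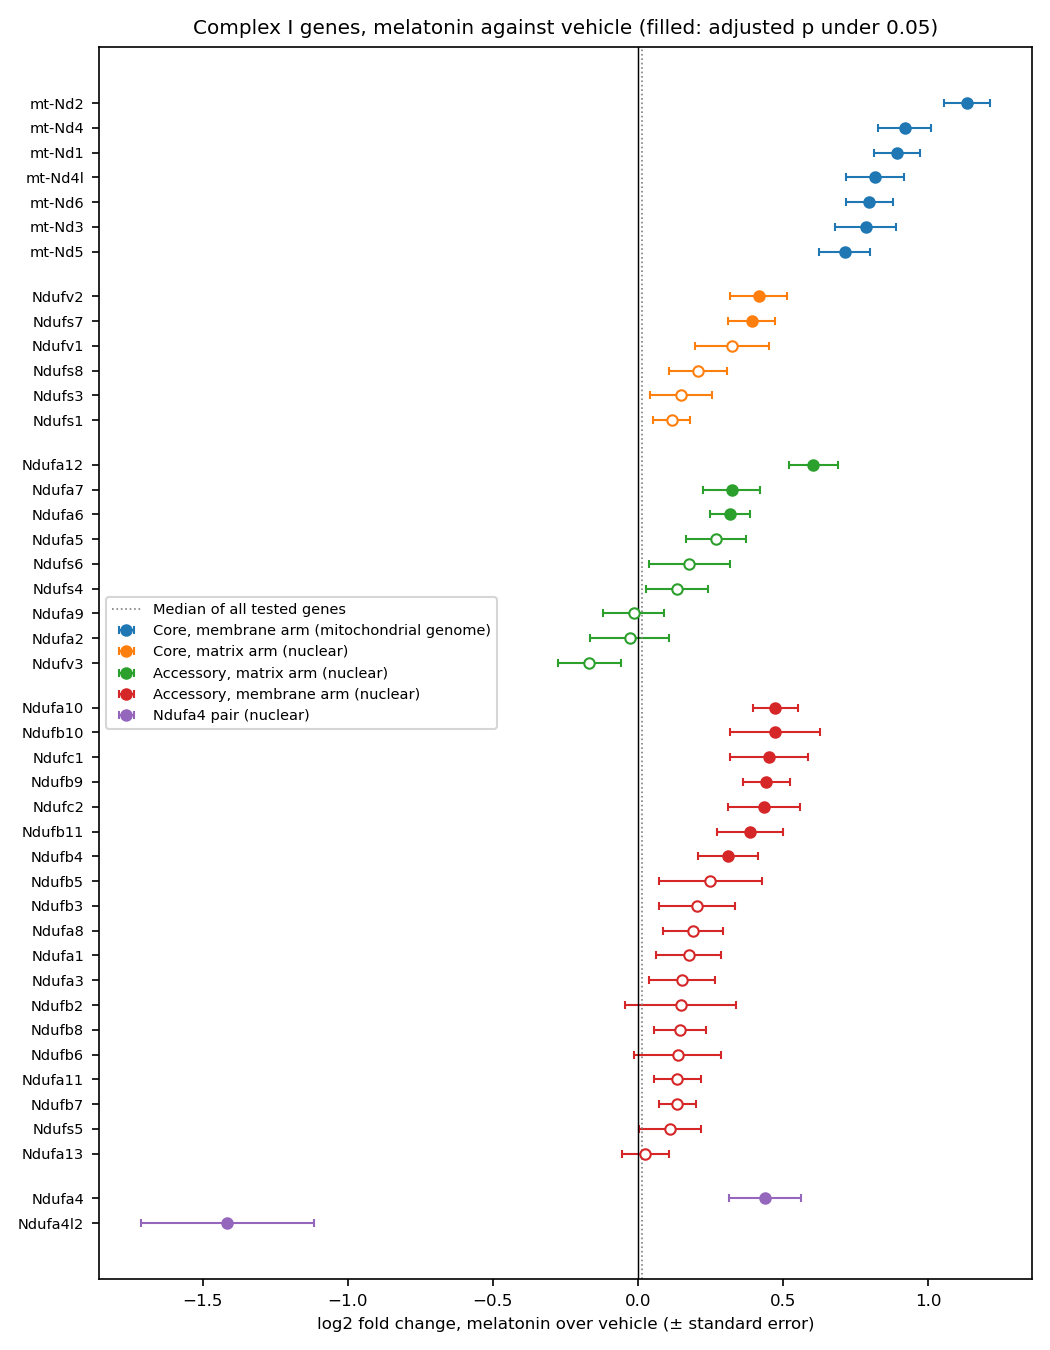
Log2 fold change of 43 of the 44 genes, melatonin over vehicle, with its standard error, ordered within structural groups; filled points passed edgeR's test at an adjusted p under 0.05 and the dotted line is the median of all tested genes (0.014). The 7 mitochondrial genes lie to the right of every nuclear gene, and Ndufa4l2 lies alone far to the left.

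The nuclear count depended on single libraries more than the mitochondrial one. Without vehicle 1, 6 nuclear members were called higher, and without vehicle 4, 8, while 14.3% and 14.5% of all genes were then called higher. Without melatonin 4, 11 of the 13 remained called and the nuclear median fell to 0.11, with 19.5% of all genes called higher. All 7 mitochondrial members passed whichever library was left out. With libraries scaled by their totals alone, 27 nuclear members were higher, while 30.8% of all tested genes were called higher. Of all calls 69.5% were then higher, against 49.4% with TMM, and the median of all genes was 0.17. In bulk RNA, fewer cells of a type and less RNA per cell cannot be told apart, and the part of the adipocyte markers in these changes was not tested.

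The mitochondrial members encode the core of the membrane arm and lie, in the GRCm38 assembly, on a circle without introns. In gene order they are mt-Nd1 (chrM:2751-3707), mt-Nd2 (chrM:3914-4951), mt-Nd3 (chrM:9459-9806), mt-Nd4l (chrM:9877-10173), mt-Nd4 (chrM:10167-11544), mt-Nd5 (chrM:11742-13565) and, on the other strand, mt-Nd6 (chrM:13552-14070). Within this order mt-Nd4l overlaps mt-Nd4 and mt-Nd5 overlaps mt-Nd6, and these ends are shown because a read that covers an overlap belongs to both genes. Capitals mark the 7 bases shared by mt-Nd4l and mt-Nd4 on the same strand, and the 14 bases where mt-Nd5 and mt-Nd6 face each other on opposite strands, each line read 5′ to 3′ along its own gene.
mt-Nd4l, last 30 bases: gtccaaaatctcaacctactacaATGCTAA
mt-Nd4, first 30 bases: ATGCTAAaaattattcttccctcactaatg
mt-Nd5, last 30 bases: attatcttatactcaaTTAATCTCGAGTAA
mt-Nd6, last 30 bases: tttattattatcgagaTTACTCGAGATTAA

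The largest mitochondrial change was in mt-Nd2, one of the antiporter-like subunits through which protons cross the membrane. Its level was 536, 471, 468 and 471 CPM in vehicle 1 to 4 and 1045, 1179, 977 and 1067 CPM in melatonin 1 to 4. Every melatonin library was above every vehicle library, and the log2 fold change was 1.13 ± 0.078 (SE, edgeR's adjusted p = 5.2e-06). The other antiporter-like subunits, mt-Nd4 and mt-Nd5, rose as well. For mt-Nd4 the vehicle libraries held 755, 618, 619 and 637 CPM and the melatonin libraries 1133, 1375, 1165 and 1298 CPM, and the log2 fold change was 0.92 ± 0.092 (SE, edgeR's adjusted p = 4.8e-05). For mt-Nd5 they held 1179, 996, 976 and 1013 CPM and 1692, 1916, 1674 and 1539 CPM, and the log2 fold change was 0.71 ± 0.088 (SE, edgeR's adjusted p = 1.8e-04). In both genes the groups were apart, with vehicle 1 the highest vehicle library.

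mt-Nd1, which forms much of the channel that leads ubiquinone to the matrix arm, was measured at 941, 855, 824 and 827 CPM in vehicle and 1493, 1746, 1478 and 1682 CPM in melatonin. The groups did not overlap, and the log2 fold change was 0.89 ± 0.079 (SE, edgeR's adjusted p = 2.3e-05). The small subunits between that channel and the antiporter-like subunits are encoded by mt-Nd3, mt-Nd4l and mt-Nd6. mt-Nd3 had 46.5, 47.5, 46.2 and 47.1 CPM in vehicle, the narrowest spread of the 7 genes in that group, and 81.01, 81.4, 64.7 and 95.9 CPM in melatonin. Its lowest melatonin library, melatonin 3, was still above every vehicle library, and the log2 fold change was 0.79 ± 0.11 (SE, edgeR's adjusted p = 3.0e-04). mt-Nd4l had 94.8, 78.01, 80.1 and 83.7 CPM in vehicle and 144, 171, 152 and 127 CPM in melatonin, and the log2 fold change was 0.82 ± 0.099 (SE, edgeR's adjusted p = 1.6e-04). The groups of mt-Nd4l were apart, with melatonin 4 the lowest melatonin library, whereas the same library was the highest for mt-Nd3.

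mt-Nd6 is the only protein-coding gene transcribed from the other strand of the circle. Its level was 225, 226, 212 and 209.6 CPM in vehicle and 357, 425, 337 and 398 CPM in melatonin, without overlap, and the log2 fold change was 0.80 ± 0.081 (SE, edgeR's adjusted p = 5.5e-05). Its counts came to 6.35% to 7.39% of those of the other 6 mt-Nd genes in vehicle and 6.12% to 6.86% in melatonin, ranges that overlapped. Whether the counting used strand is not given in the sources used here, so reads of mt-Nd6 and of transcripts antisense to it cannot be told apart.

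The nuclear genome holds old copies of part of the mitochondrial genome, and in the deposited counts they matter for 3 members. Of the 50-base stretches of the mt-Nd4l transcript 98.8% also occur in the annotated pseudogene Gm10222 on chromosome 1 (chr1:24612407-24612700), of mt-Nd3 98.0% in Gm28438 (chr1:24612775-24613119), and of mt-Nd4 62.2% in Gm28439 (chr1:24611535-24612410). Gm10222 had 97.3% to 99.5% of the count of mt-Nd4l in each library, and Gm28438 96.0% to 98.8% of that of mt-Nd3. Gm28439 had 29.9% to 32.2% of that of mt-Nd4. The 3 pseudogenes rose by nearly the same amount as the genes, with log2 fold changes of 0.81 ± 0.10, 0.80 ± 0.11 and 0.91 ± 0.083 (SE). How reads with several matching places were counted is not given in the sources used here, and the counts of these genes and their copies cannot be told apart. mt-Nd1 and mt-Nd6 share no such stretch with another annotated transcript, and mt-Nd2 and mt-Nd5 share 8.19% and 7.61% with pseudogenes that had at most 0.143% of their counts. Those 4 genes alone had a median log2 fold change of 0.84, against 0.82 for all 7.

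The other protein-coding genes of the circle, which encode subunits of complexes III, IV and V, also rose in 6 of 6 cases, with log2 fold changes of 0.65 to 0.92 and a median of 0.75. The mt-Nd genes took 28.6% to 29.03% of the mitochondrial mRNA counts in vehicle and 29.04% to 31.0% in melatonin (28.9 ± 0.193% and 30.2 ± 0.823%, SD, n = 4 each), groups that just failed to overlap, vehicle 3 against melatonin 4. Without mt-Nd6 the shares were 26.6% to 27.3% and 27.2% to 29.2%, and the groups overlapped. Within that share mt-Nd2 went from 4.09% to 4.21% in vehicle to 4.99% to 5.35% in melatonin. The shares of mt-Nd1 (7.22% to 7.43%, then 7.65% to 7.87%) and mt-Nd4 (5.37% to 5.795%, then 5.805% to 6.17%) were also apart between the groups, and those of mt-Nd3, mt-Nd4l, mt-Nd5 and mt-Nd6 overlapped. Outside complex I the share of mt-Cytb, of complex III, was higher without overlap (10.9% to 11.8%, then 11.85% to 12.5%). Those of the complex IV genes mt-Co2 (6.27% to 6.71%, then 5.67% to 6.08%) and mt-Co1 (42.3% to 42.8%, then 41.8% to 42.2%) were lower without overlap, and those of mt-Co3, mt-Atp6 and mt-Atp8 overlapped.

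**Figure D2:**
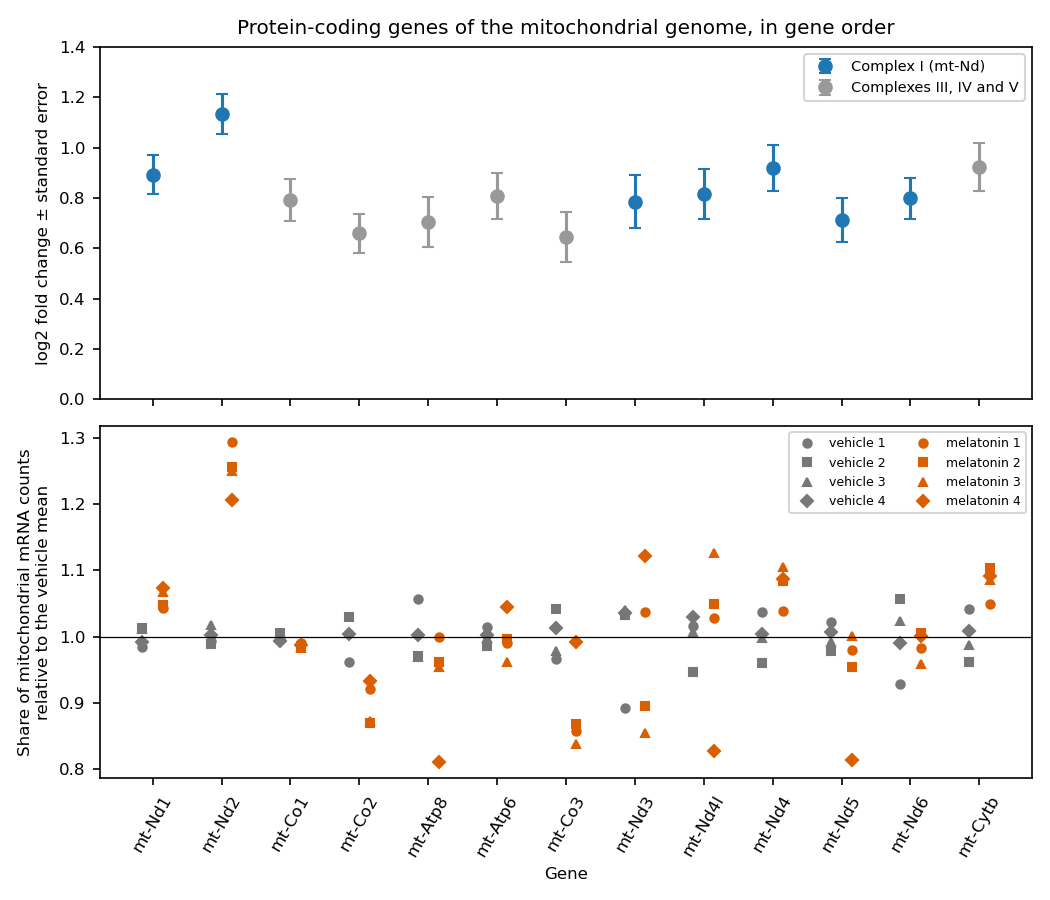
Top, log2 fold change with standard error of the 13 protein-coding genes of the mitochondrial genome in gene order; bottom, each gene's share of the mitochondrial mRNA counts in each library divided by the mean vehicle share. All 13 log2 fold changes lie between 0.65 and 1.13, and mt-Nd2 is the gene whose share moved most, from a mean of 4.14% to 5.18%.

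The nuclear core of the matrix arm has 7 members, of which 2 rose, none fell and 5 did not pass. Their median log2 fold change was 0.23, and of all tested genes 18.1% rose and 18.5% fell. Ndufv2, an iron-sulfur subunit next to the NADH site (chr17:66078638-66101559), had 49.1, 59.5, 48.03 and 43.5 CPM in vehicle and 66.7, 69.7, 60.4 and 70.1 CPM in melatonin. The groups were apart, the closest being vehicle 2 and melatonin 3, and the log2 fold change was 0.42 ± 0.099 (SE, edgeR's adjusted p = 0.0086). Ndufs7, which carries the last cluster before ubiquinone (chr10:80249121-80256794), had 48.4, 56.5, 53.7 and 50.4 CPM and 68.2, 66.7, 62.5 and 76.9 CPM, again without overlap, and the log2 fold change was 0.39 ± 0.081 (SE, edgeR's adjusted p = 0.0041).

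Ndufv1, which binds the flavin and NADH, had 37.1, 47.8, 57.7 and 48.9 CPM in vehicle and 60.3, 57.3, 53.8 and 68.2 CPM in melatonin. Vehicle 3 lay inside the melatonin range, and the log2 fold change was 0.32 ± 0.13 (SE, edgeR's adjusted p = 0.076). The difference in Ndufv1 passed the test when vehicle 3 was left out.

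The estimates were smaller in Ndufs1, Ndufs8 and Ndufs3. Ndufs1, the largest subunit and a carrier of several iron-sulfur clusters, had 56.2, 54.4, 51.95 and 53.7 CPM in vehicle and 55.2, 60.2, 56.9 and 62.1 CPM in melatonin, and the log2 fold change was 0.12 ± 0.063 (SE, edgeR's adjusted p = 0.19). Ndufs8, which carries clusters on the path to ubiquinone, had 44.04, 54.5, 46.01 and 46.1 CPM and 49.95, 51.3, 54.2 and 64.5 CPM, and the log2 fold change was 0.21 ± 0.10 (SE, edgeR's adjusted p = 0.14). Ndufs3, an early-assembled subunit that carries no cluster, had 53.5, 71.7, 58.2 and 53.6 CPM and 64.3, 64.3, 59.7 and 74.5 CPM, and the log2 fold change was 0.15 ± 0.11 (SE, edgeR's adjusted p = 0.32). The groups of all 3 overlapped, and vehicle 2 was the highest vehicle library for Ndufs8 and Ndufs3. Ndufs3 shares 39.7% of its 50-base stretches with other transcripts, mostly the pseudogene Gm12251, which had 1.17% to 1.69% of its counts.

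Of the 9 accessory subunits of the matrix arm 3 rose, none fell and 6 did not pass, with a median of 0.18. The shares over all tested genes were 18.1% higher and 18.5% lower. The largest change of any nuclear member was in Ndufa12 (chr10:94198720-94221443), the paralog that takes the place of the assembly factor Ndufaf2 late in assembly. Its level was 30.4, 30.8, 30.3 and 28.6 CPM in vehicle and 43.6, 49.4, 40.1 and 49.6 CPM in melatonin. No vehicle library came near the lowest melatonin library, melatonin 3, and the log2 fold change was 0.61 ± 0.083 (SE, edgeR's adjusted p = 3.6e-04). Its pseudogene Gm15920, which holds 26.2% of its 50-base stretches, had 0.574% to 1.66% of its counts. Ndufa6 (chr15:82350140-82354322), a small subunit that binds the acyl carrier protein, had 54.9, 56.2, 51.6 and 49.9 CPM in vehicle and 66.2, 70.2, 61.3 and 67.4 CPM in melatonin. The groups were apart, and the log2 fold change was 0.32 ± 0.069 (SE, edgeR's adjusted p = 0.005). Ndufa7 was the third, with a log2 fold change of 0.32 ± 0.097 (SE, edgeR's adjusted p = 0.026), and lost its call without vehicle 1, 3 or 4.

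The 3 nuclear members with a negative estimate other than Ndufa4l2 are all accessory subunits of the matrix arm, and none passed the test. Ndufv3, a small subunit beside the NADH site, had 84.4, 95.7, 81.2 and 88.6 CPM in vehicle and 82.5, 77.8, 62.00 and 89.3 CPM in melatonin, and the log2 fold change was -0.17 ± 0.11 (SE, edgeR's adjusted p = 0.26). Ndufa2, which has a thioredoxin-like fold, had 73.8, 99.03, 90.9 and 89.3 CPM and 84.9, 74.4, 76.1 and 111 CPM, and the log2 fold change was -0.029 ± 0.14 (SE, edgeR's adjusted p = 0.89). In both genes melatonin 4 was the highest melatonin library and the groups overlapped. Ndufa9, at the junction with the membrane arm, had a log2 fold change of -0.015 ± 0.10 (SE, edgeR's adjusted p = 0.93), and its sign and that of Ndufa2 turned when vehicle 2 or melatonin 2 or 3 was left out, or when libraries were scaled by their totals alone. Ndufs4, whose loss in mice is used as a model of Leigh syndrome, had 0.13 ± 0.11 (SE, edgeR's adjusted p = 0.36), with overlapping groups.

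The accessory subunits of the membrane arm are 19 genes, of which 7 rose, none fell and 12 did not pass, with a median of 0.19. All 19 estimates were positive. Of all tested genes 18.1% were called higher and 18.5% lower. Ndufa10 (chr1:92439010-92473860), which has the fold of a nucleoside kinase, had 60.8, 61.9, 70.1 and 62.02 CPM in vehicle and 90.2, 88.3, 79.4 and 95.8 CPM in melatonin, and the log2 fold change was 0.47 ± 0.077 (SE, edgeR's adjusted p = 9.7e-04). Ndufb9 (chr15:58933756-58939488), the subunit that binds the acyl carrier protein in this arm, had 71.5, 83.3, 77.9 and 73.6 CPM and 106, 97.7, 96.3 and 116 CPM, and the log2 fold change was 0.44 ± 0.080 (SE, edgeR's adjusted p = 0.0018). In both genes every melatonin library was above every vehicle library. Ndufc2 (chr7:97400003-97407802), a subunit of the membrane arm, had 33.4, 44.1, 40.4 and 37.4 CPM and 48.2, 50.6, 45.7 and 65.3 CPM, and the log2 fold change was 0.43 ± 0.13 (SE, edgeR's adjusted p = 0.022). Its groups were apart by a narrow margin, vehicle 2 against melatonin 3, and melatonin 4 was far above the rest.

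Ndufb10 (chr17:24722060-24724478), whose cysteines face the intermembrane space, had 40.9, 60.1, 43.1 and 55.4 CPM in vehicle and 62.9, 86.2, 58.1 and 69.6 CPM in melatonin. Vehicle 2 exceeded melatonin 3, so the groups overlapped, and the log2 fold change was 0.47 ± 0.16 (SE, edgeR's adjusted p = 0.039). Ndufb4 passed with overlapping groups too, at 41.9, 46.3, 41.3 and 39.6 CPM and 51.1, 52.2, 44.1 and 62.3 CPM, and the log2 fold change was 0.31 ± 0.10 (SE, edgeR's adjusted p = 0.041). Ndufb4 lost its call without any 1 of vehicle 1, 3 and 4 and melatonin 1, 2 and 4, and Ndufb10 without any 1 of vehicle 1 and 3 and melatonin 2 and 4. The processed copy Ndufb4c, which holds 36.98% of the 50-base stretches of Ndufb4, had 3.21% to 5.45% of its counts. Ndufb11 and Ndufc1 were the others that rose, with log2 fold changes of 0.39 ± 0.11 (SE, edgeR's adjusted p = 0.023) and 0.45 ± 0.14 (SE, edgeR's adjusted p = 0.025). The calls for Ndufb11, Ndufc1 and Ndufc2 were lost without vehicle 1 or vehicle 4. The 12 not called ranged from 0.026 for Ndufa13, also known as Grim19, to 0.25 for Ndufb5.

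Genes on opposite strands overlap several of these members, and the use of strand is not given in the sources used here. The longest of these exon overlaps are 616 bp between Ndufb5 and Mrpl47, 489 bp between Ndufs1 and the long non-coding Ino80dos, 375 bp between Ndufa13 and Tssk6 and 257 bp between Ndufb6 and Smim27. Mrpl47 had 23.0% to 40.5% of the count of Ndufb5, Smim27 5.92% to 10.8% of that of Ndufb6, Tssk6 0.661% to 1.90% of that of Ndufa13 and Ino80dos 0.275% to 1.02% of that of Ndufs1. None of these 4 members passed the test. Of the members that rose, Ndufb11 overlaps Rbm10 by 117 bp, and Rbm10 had 27.6% to 54.4% of its count. In all, 12 nuclear members share over 10% of their 50-base stretches with a transcript of another annotated gene.

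**Figure D3:**
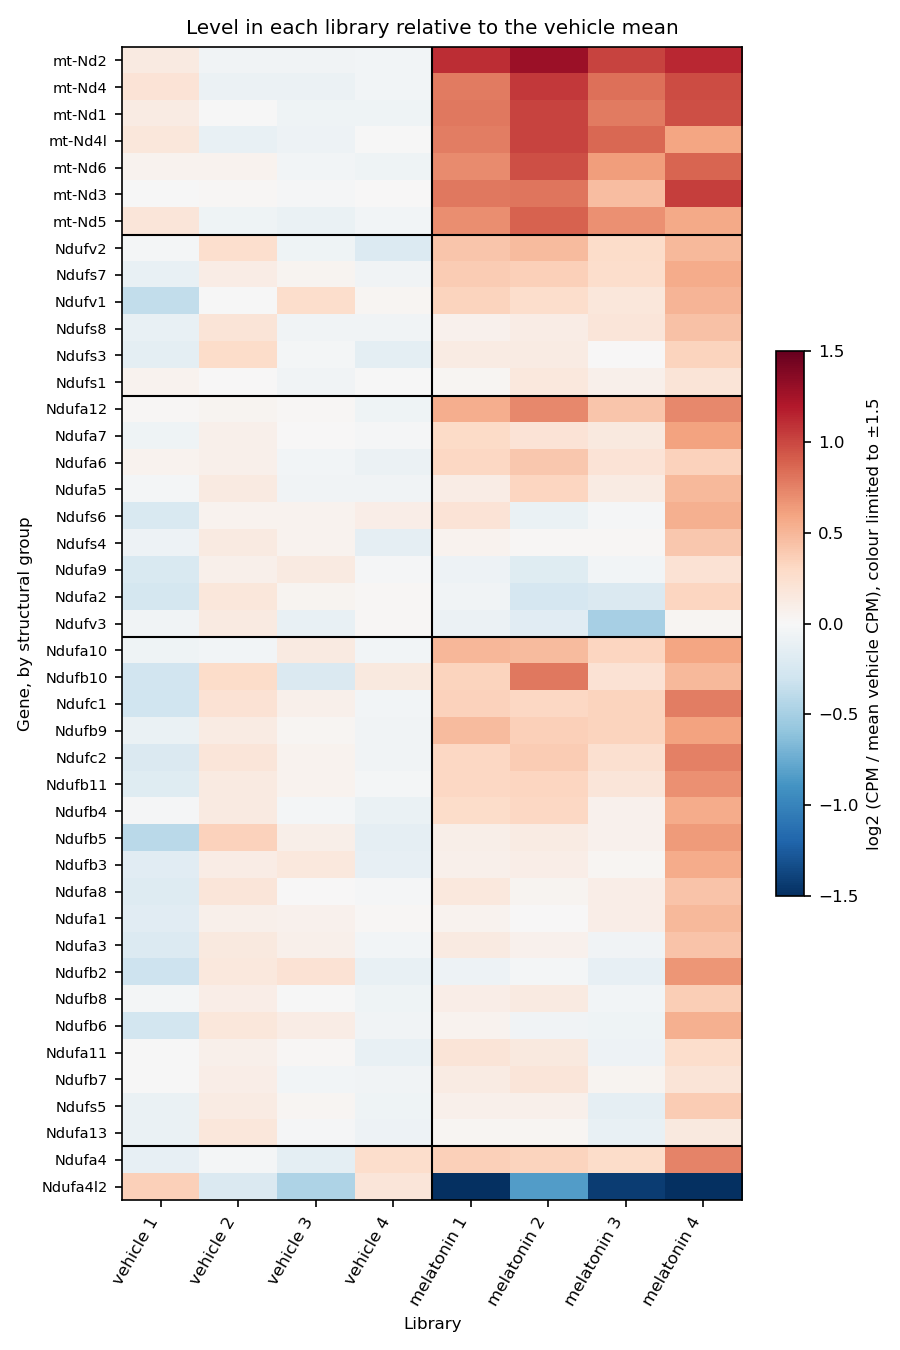
Level of the same 43 genes in each library as log2 of its CPM over the mean vehicle CPM, genes ordered by structural group as in the plot of fold changes; the colour scale ends at 1.5 in either direction. Melatonin 4 has the strongest red over the nuclear genes, with a median of 0.49 against 0.073 to 0.15 in melatonin 1 to 3, while over the mitochondrial genes all 4 melatonin libraries are red, with medians of 0.78 to 1.02.

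The lone member that fell was Ndufa4l2 (chr10:127514967-127517154), best known as a hypoxia-induced gene, and its paralog Ndufa4 (chr6:11900292-11907497), a subunit of cytochrome c oxidase, rose. Ndufa4l2 had 426, 287, 242 and 378 CPM in vehicle and 118, 186, 124 and 72.5 CPM in melatonin. It was the most abundant nuclear member in every vehicle library, and the highest melatonin library, melatonin 2, was below the lowest vehicle library, vehicle 3, and the log2 fold change was -1.42 ± 0.30 (SE, edgeR's adjusted p = 0.0071). Ndufa4 had 67.7, 72.3, 66.4 and 88.5 CPM in vehicle and 94.3, 92.6, 89.6 and 123 CPM in melatonin. Its groups were just apart, vehicle 4 against melatonin 3, and the log2 fold change was 0.44 ± 0.12 (SE, edgeR's adjusted p = 0.02). The call for Ndufa4 was lost without vehicle 1 or vehicle 3, and that for Ndufa4l2 in no leave-one-out fit, where its log2 fold change ran from -1.67 to -1.22. Counts of Ndufa4l2 were 3.64 to 6.29 times those of Ndufa4 in vehicle and 0.588 to 2.005 times in melatonin, a ratio within a library that needs no scaling. The transcripts of the pair share no 50-base stretch. Ndufa4l2 took 10.2% to 18.3% of all counts of the 37 nuclear members in vehicle and 2.51% to 7.25% in melatonin.

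**Figure D4:**
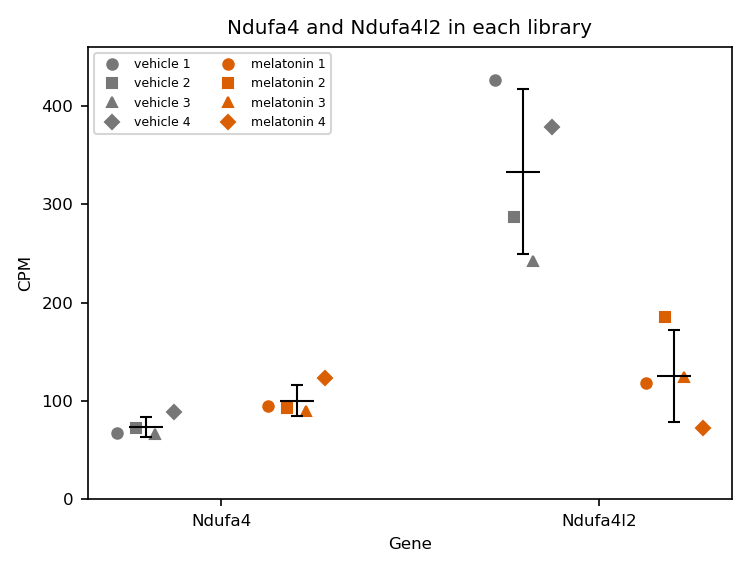
CPM of Ndufa4 and Ndufa4l2 in each library, with the mean and SD of each group (n = 4). Ndufa4 went from a mean of 73.7 to 99.96 CPM and Ndufa4l2 from 333 to 125 CPM, with no overlap between groups in either gene.

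Counts of the mitochondrial members outnumbered those of the nuclear members in every library, and more so with melatonin. The 7 mt-Nd genes together had 1.62, 1.29, 1.36 and 1.37 times the summed counts of the 37 nuclear members in vehicle 1 to 4, and 2.39, 2.69, 2.51 and 2.15 times in melatonin 1 to 4. The means were 1.41 ± 0.144 and 2.43 ± 0.226 (SD, n = 4 each), a 1.72-fold rise of a ratio that needs no scaling between libraries. The groups did not overlap, and melatonin 4, with its high nuclear levels, had the lowest melatonin ratio. Because Ndufa4l2 takes a large share of the nuclear counts and fell, the ratio was also taken without it and Ndufa4. It was then 2.05, 1.504, 1.57 and 1.70 in vehicle and 2.61, 3.02, 2.76 and 2.31 in melatonin, 1.57-fold higher on average and again without overlap. Without mt-Nd3, mt-Nd4 and mt-Nd4l, the genes with nuclear copies, it rose 1.72-fold, from 1.08 ± 0.104 to 1.86 ± 0.180 (SD, n = 4 each). Ribosomal RNA of the mitochondrial genome took 0.0272% to 0.0301% of all counts in vehicle and 0.0499% to 0.0698% in melatonin. Mitochondrial mRNA took 1.02% to 1.27% and 2.03% to 2.38%. How much ribosomal RNA the library preparation left was not tested, so its shares are not levels in the cells.

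Within each library the median over the 37 nuclear members, as log2 of CPM over the vehicle mean, was -0.11, 0.13, 0.025 and -0.051 in vehicle 1 to 4 and 0.13, 0.15, 0.073 and 0.49 in melatonin 1 to 4. Melatonin 3 lay below vehicle 2, so the groups overlapped, and melatonin 4 stood far above the rest. The same median over the mitochondrial members was 0.14, -0.047, -0.064 and -0.045 in vehicle and 0.79, 1.02, 0.78 and 0.96 in melatonin, where no library came near the other group.

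**Figure D5:**
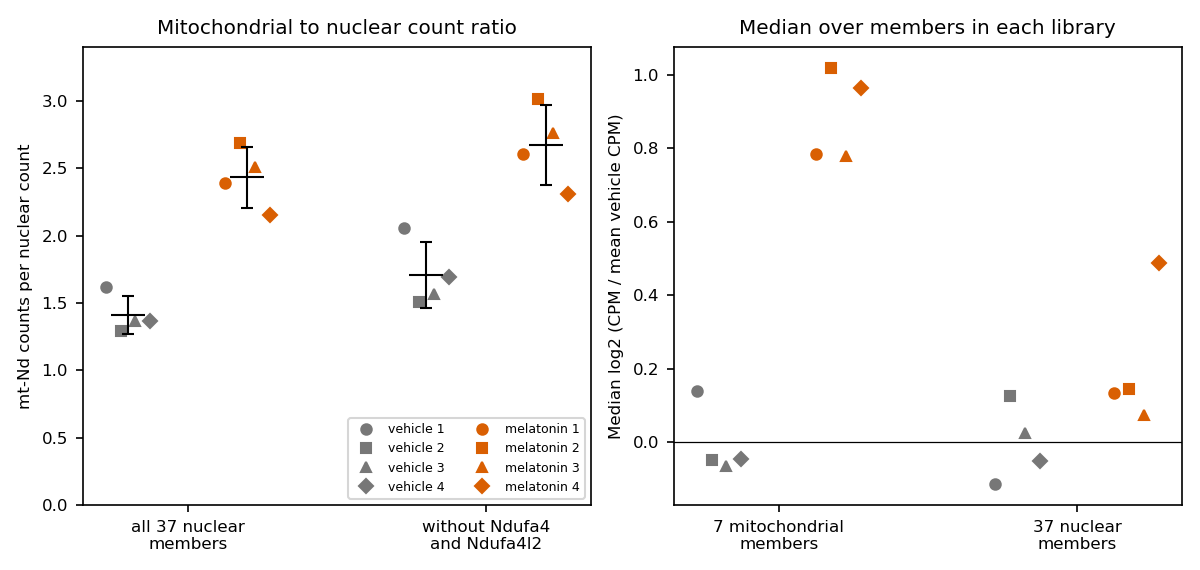
Left, summed mt-Nd counts divided by summed nuclear member counts in each library, with all 37 nuclear members and without Ndufa4 and Ndufa4l2, with the mean and SD of each group (n = 4); right, the median over the members of log2 CPM relative to the vehicle mean. The ratio is apart between groups in both versions, and on the right the nuclear medians overlap while the mitochondrial ones do not.

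Per kilobase of exon, the mitochondrial members were above nearly all nuclear ones. In vehicle they ranged from 135 CPM per kb for mt-Nd3 to 900.3 for mt-Nd1, with a median of 468, and the nuclear members from 4.89 for Ndufb2 to 304 for Ndufa4l2, with a median of 33.9. In melatonin the mitochondrial median was 902 and the nuclear median 39.8 CPM per kb. The order of the mt-Nd genes per kb in vehicle was mt-Nd1, mt-Nd5, mt-Nd4, mt-Nd2, mt-Nd6, mt-Nd4l and mt-Nd3, and the means of mt-Nd4 (477 ± 47.8) and mt-Nd2 (468 ± 31.7) did not differ beyond their SDs (n = 4 each). In melatonin mt-Nd2 came second, at 1028 ± 80.9 CPM per kb, ahead of mt-Nd5 (935 ± 85.6) and mt-Nd4 (902 ± 82.4). The ranges of mean ± SD of the 3 genes overlapped, while within each melatonin library mt-Nd2 was above mt-Nd5 and mt-Nd4. Counts of mt-Nd3, mt-Nd4l and mt-Nd4 cannot be told apart from those of their nuclear copies, so their places in these orders are not settled. Read assignment at overlaps and polyadenylation also limit comparisons of levels between genes. The union of annotated exons makes some genes long. By the length of the principal transcript the nuclear medians were 56.9 and 69.7 CPM per kb.

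The promoters of the nuclear members, of which 13 were called higher, were searched for motifs tied to mitochondrial biogenesis in general. RefSeq promoters, 250 bases before to 50 bases after the start on GRCm38.p6, were matched for 32 of the 37. On either strand, the NRF1-type letters (GCGC, any base, then TGCGC) stood in 7 of the 32 (21.9%) against 5.19% of all 27025 genes, and the YY1-type letters AAGATGGCG in 5 (15.6%) against 1.64%. The ETS-type letters CCGGAAG stood in 4 (12.5%) against 9.93%, and the ERR-type letters TCAAGGTCA in 0 against 0.466%. No member had overlapping matches of different motifs. Of the 12 members with a promoter that rose, 2 held the NRF1-type and 2 the YY1-type letters, and of the other 20, 5 and 3. A match is a description of the letters and shows no binding. The 27025 genes were not limited to expressed genes or matched for base composition. The 4 promoters of members that rose and held either motif are printed 5′ to 3′ along the gene, with the matches in capitals. Those of Ndufa6 (chr15:82354242-82354541, minus strand) and Ndufb4 (chr16:37654319-37654618, minus strand) hold 1 and 3 NRF1-type matches. Those of Ndufc1 (chr3:51408906-51409205, minus strand) and Ndufs7 (chr10:80249199-80249498, plus strand) hold 1 YY1-type match each, shortly after the RefSeq start used for the promoter. In GENCODE the gene Ndufs7 starts further upstream, at chr10:80249121.
Ndufa6: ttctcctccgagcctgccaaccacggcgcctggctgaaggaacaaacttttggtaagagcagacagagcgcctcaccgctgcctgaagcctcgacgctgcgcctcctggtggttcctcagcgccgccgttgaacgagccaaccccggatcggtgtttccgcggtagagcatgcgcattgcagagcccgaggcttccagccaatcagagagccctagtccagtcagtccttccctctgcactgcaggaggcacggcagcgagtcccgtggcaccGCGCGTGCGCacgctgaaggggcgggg
Ndufb4: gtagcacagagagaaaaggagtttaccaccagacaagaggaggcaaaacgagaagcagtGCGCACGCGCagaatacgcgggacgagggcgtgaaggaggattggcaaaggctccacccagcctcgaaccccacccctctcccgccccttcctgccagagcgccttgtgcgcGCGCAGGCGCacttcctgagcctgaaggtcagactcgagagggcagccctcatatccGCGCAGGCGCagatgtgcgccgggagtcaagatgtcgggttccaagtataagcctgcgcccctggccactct
Ndufc1: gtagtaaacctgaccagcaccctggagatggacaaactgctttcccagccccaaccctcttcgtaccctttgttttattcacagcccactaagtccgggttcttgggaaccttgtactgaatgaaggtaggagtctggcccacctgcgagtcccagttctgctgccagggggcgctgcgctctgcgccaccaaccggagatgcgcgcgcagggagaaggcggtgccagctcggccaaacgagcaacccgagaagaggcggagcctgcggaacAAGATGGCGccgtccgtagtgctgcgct
Ndufs7: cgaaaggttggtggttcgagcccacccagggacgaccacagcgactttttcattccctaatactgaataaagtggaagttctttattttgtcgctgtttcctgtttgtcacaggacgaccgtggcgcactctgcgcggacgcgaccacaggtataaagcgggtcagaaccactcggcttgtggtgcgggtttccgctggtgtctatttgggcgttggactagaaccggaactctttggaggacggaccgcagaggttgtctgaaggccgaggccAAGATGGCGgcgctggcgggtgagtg

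Complex I does not assemble without a set of dedicated factors. Of the 19 tested 7 rose, against 18.1% of all tested genes, with a median log2 fold change of 0.28. No factor fell by edgeR after adjustment, against 18.5% of all tested genes. DESeq2 also called no factor lower after adjustment, and 0 were lower at an unadjusted p under 0.05 in edgeR. The smallest p-values were those of Ndufaf7, a mitochondrial methyltransferase, which went from 14.6 ± 0.565 to 19.96 ± 1.27 CPM (log2 fold change 0.45 ± 0.078, SE, edgeR's adjusted p = 0.0015), and of Ndufaf2, the paralog that Ndufa12 replaces, which went from 7.86 ± 0.690 to 11.4 ± 1.41 CPM (log2 fold change 0.54 ± 0.11, SE, edgeR's adjusted p = 0.0045; SD and n = 4 for the levels). Tmem126b, Tmem186, Acad9, Ecsit and Dmac1 rose too. The acyl carrier Ndufab1, outside the name rule, went from 60.6 ± 1.66 to 88.6 ± 6.79 CPM (SD, n = 4), a log2 fold change of 0.55 ± 0.068 (SE, edgeR's adjusted p = 1.9e-04). Ndufb1-ps, the non-coding annotation at the place of a membrane-arm subunit, had 33.3 ± 4.50 and 29.5 ± 5.93 CPM (SD, n = 4; adjusted p = 0.39).

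The nuclear subunits of the other respiratory complexes and of ATP synthase gave 24 of 45 higher and 1 lower, with a median of 0.30. For the nuclear members these were 13 of 37 and 0.20, or 12 of 35 and 0.20 without Ndufa4 and Ndufa4l2. The difference between the sets was not tested. Of all tested genes 18.1% were higher and 18.5% lower. Complex II, the succinate entry point, rose in all 4 genes, with the smallest p for Sdhb and Sdhd (log2 fold changes of 0.45 ± 0.091 and 0.34 ± 0.074, SE). Complex III rose in 7 of 9, with the smallest p for Cyc1 (0.64 ± 0.069) and Uqcr11 (0.52 ± 0.080). Complex IV rose in 7 of 16, with the smallest p for Cox8b, an isoform of muscle and brown fat that went from 0.536 ± 0.120 to 2.33 ± 0.289 CPM, and its 1 lower gene was Cox4i2, an isoform known from lung, from 2.51 ± 0.337 to 0.842 ± 0.278 CPM (SD, n = 4). ATP synthase rose in 6 of 16, with the smallest p for Atp5b (0.32 ± 0.060) and Atp5o (0.40 ± 0.089) and the largest log2 fold change for Atp5g3 (0.53 ± 0.14).

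Genes that express the mitochondrial genome gave 10 of 29 higher and 2 lower, with a median of 0.25. The shares over all tested genes were 18.1% higher and 18.5% lower. Mterf4, which takes part in building the mitochondrial ribosome, rose by 0.86 ± 0.14 (SE) on the log2 scale, and Lrpprc, which keeps mitochondrial mRNAs stable, by 0.36 ± 0.072. Slirp, the binding partner of Lrpprc, fell by 0.35 ± 0.11, and Pnpt1, a nuclease that degrades mitochondrial RNA, fell by 0.68 ± 0.12 (SE, edgeR's adjusted p = 0.0016). The mitochondrial RNA polymerase Polrmt rose by 0.32 ± 0.10, and Tfam, which packages mitochondrial DNA, had 0.17 ± 0.13 (SE, edgeR's adjusted p = 0.32). Lrpprc, Polrmt and Tfam were named after their values were seen. Without vehicle 3, 4 genes of this list were higher, and without vehicle 1, 2 or 4, 6 were. Of all genes 14.3% to 14.9% were then higher. Without vehicle 1 or 3 or melatonin 1 or 2, 1 gene was lower, with 15.9% to 16.1% of all genes then lower.

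Of 8 nuclear regulators of mitochondrial genes 3 rose and 2 fell, against 18.1% higher and 18.5% lower over all tested genes. The coactivators Ppargc1b and Ppargc1a went from 0.439 ± 0.0635 to 2.34 ± 0.885 CPM and from 1.08 ± 0.284 to 3.15 ± 0.618 CPM (SD, n = 4), low levels in both groups, and Esrra, a nuclear receptor they bind, rose by 0.26 ± 0.079 (SE). Yy1 fell by 0.35 ± 0.052, from 97.5 ± 1.61 to 76.2 ± 1.70 CPM, and Gabpb1, a subunit of an ETS factor, fell by 0.44 ± 0.094. Nrf1, the factor named for the first motif, stood at 12.2 ± 0.152 and 12.2 ± 1.34 CPM (SD, n = 4), with an edgeR adjusted p of 0.99. Among 8 other genes that feed electrons to ubiquinone 2 rose and 1 fell, against 18.1% higher and 18.5% lower over all tested genes. They were Etfdh, which passes on electrons from fatty acid oxidation and rose by 0.52 ± 0.064, Dhodh, of pyrimidine synthesis, which rose by 0.38 ± 0.12, and Sqor, of sulfide oxidation, which fell by 0.47 ± 0.077 (SE, log2 scale). Without vehicle 1, vehicle 3 or melatonin 2, 1 gene was higher, and without vehicle 1, 2 were lower. Of all genes 14.3% to 15.4% were higher in those fits, and 16.1% were lower without vehicle 1.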

How the data were processed

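Total RNA of 8 libraries, 4 per group, was sequenced. The authors deposited raw counts for 20781 Ensembl genes, each with at least 11 counts over the libraries. Per the submitters' processing notes, genome build mm10 was used with HISAT2 2.0, and DESeq2 1.12.4, StringTie 1.3.3b, bedtools 2.26.0, Trimmomatic 0.36 and FastQC 0.11.2 are also named. Strand use, the counting program and the annotation were not given in the sources used here. The columns with a control prefix were read as vehicle, the lone other group. The labels' extraction protocol names longissimus dorsi, another muscle than those listed for the cells, and the strain is also given as C57BL/6J. Symbols and positions came from GENCODE M21 on GRCm38, which holds 20720 of the gene IDs.

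Counts were tested in R 4.3.3 with edgeR 4.0.16 (robust quasi-likelihood, filterByExpr by group, TMM, Benjamini-Hochberg over 16565 genes, threshold 0.05, 2-sided), with group as the only term. The standard error (SE) of a log2 fold change is its size over the square root of F. Alternatives were DESeq2 1.42.0, limma 3.58.1 (voom), other scalings, filters and thresholds, a block for the replicate number, and leaving out each library. Same-numbered libraries of the groups did not deviate together (r -0.071 to 0.038), so the numbers were not taken as pairs. P-values measure only the spread between these libraries. No pair of libraries looked like 1 library deposited again. The members, structural groups and related lists were chosen with earlier results of these data known. The values of 1 nuclear member are not reported here, though it stays in the counts and medians. Values in every library are given for the mitochondrial members and the other nuclear core members, the Ndufa4 pair, the 5 other nuclear members with the smallest p, the 3 with the largest and the 3 with the smallest log2 fold change, and Ndufb4, which has an annotated copy. From each related list the text gives the 2 genes with the smallest p and any called against the majority. Atp5g3, Dhodh, Esrra, Lrpprc, Nrf1, Polrmt, Tfam, mt-Co2 and the assembly factors beyond Ndufaf7 and Ndufaf2 were named after their values were seen. Procedures were tested on simulated data.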

Additional observations from a re-analysis of the deposited data

Results flagged for a closer look

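In 11 of 94 groups of 4 libraries examined, 1 per gene and condition plus summary ratios, a single library lay far from the other 3. Chance flags about 1 in 20 such groups, and the genes share libraries, so the groups are not independent.

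Of the 11, 7 were high values in melatonin 4. They were 49.2 CPM for Ndufs4 (37.5 to 38.5 in the other 3), 43.5 CPM for Ndufb2 (25.3 to 27.0), 38.6 CPM for Ndufb3 (27.0 to 28.2), 45.5 CPM for Ndufb5 (30.6 to 31.7), 57.6 CPM for Ndufb6 (37.8 to 41.0), 43.5 CPM for Ndufc1 (31.8 to 32.7) and 123 CPM for Ndufa4 (89.6 to 94.3). The share of counts in ribosomal protein genes was 5.08% in melatonin 4 and 3.70% to 3.90% in melatonin 1 to 3, and its part in these values was not tested. Ndufc1 and Ndufa4 kept their calls without melatonin 4.

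In vehicle 1, mt-Nd2 stood at 535.5 CPM (468 to 471 in the other 3) and mt-Nd4 at 755 CPM (617.5 to 637). In vehicle 2 Ndufa5 stood at 19.4 CPM (17.0 to 17.3), and in vehicle 3 Ndufa10 at 70.1 CPM (60.8 to 62.0).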

How the results depend on the processing

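The calls of all 7 mitochondrial members and of Ndufa4l2 held, with their direction, under DESeq2, limma-voom, the other scalings, filters and thresholds, the replicate block and each left-out library. The nuclear count was 13 higher under DESeq2, limma-voom, DESeq2's size factors, TMM on nuclear genes and no filter. Without Ndufa4 and Ndufa4l2 no nuclear member was lower. Over the members' single fold changes, 717 settings left a member called or not called as before, which includes members never called. A call was lost in 40 and gained in 21, and the sign turned in 14.

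Library totals alone moved the median of all genes to 0.17 and made 69.5% of calls higher, against 49.4%. Of all tested genes 30.8% were then higher and 13.5% lower. Beside that shift the medians were 0.36 for nuclear and 0.97 for mitochondrial members, and 27 nuclear members, 12 assembly factors, 20 mitochondrial expression genes and 4 other ubiquinone-feeding genes were higher, with 1 expression gene lower. At an adjusted p under 0.01, 6 nuclear members, 4 assembly factors, 3 expression genes (1 lower), 1 ubiquinone-feeding gene and 12 genes of complexes II to V were higher. With a required change of 1.2-fold these were 3, 2, 1 (1 lower), 1 and 5, and 0 regulators were lower. Of all tested genes 10.6% were higher and 12.7% lower at that adjusted p, and 8.78% and 12.3% with the required change. The nuclear members were thus called higher no more often than all genes when a change of 1.2-fold was required. With at least 10 CPM in 4 libraries, 1 regulator was higher and 0 genes of complexes II to V lower. Ppargc1a, Ppargc1b and Cox4i2 stayed below 10 CPM in every library, so that filter left them untested. Under it 2 ubiquinone-feeding genes were lower, as also under DESeq2 and its size factors. The cause of these differences was not tested beyond what each setting changes by construction.

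With the replicate number as a block, 11 nuclear members were higher, Ndufa7 and Ndufb4 being lost, and 6 expression genes were higher and 1 lower. Of all tested genes 13.8% were then higher and 16% lower, against 18.1% and 18.5% without the block. No library deviated most like the library of its own number (0 of 8).

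Leaving out each library in turn gave 6 to 15 nuclear members higher, 1 to 1 lower, 4 to 10 expression genes higher and 1 to 2 lower, 1 to 2 ubiquinone-feeding genes higher and 1 to 2 lower. Of all tested genes 14.3% to 19.5% were then higher and 15.9% to 19.4% lower. Single members near 0 turned sign. Without each library in turn Ndufa2 ran from -0.16 to 0.047, Ndufa9 from -0.092 to 0.047, Ndufa13 from -0.007 to 0.086, Ndufb2 from -0.063 to 0.24 and Ndufb6 from -0.014 to 0.22. The turned values were, for Ndufa2, 0.13 with totals alone, 0.031 without vehicle 2, and 0.047 and 0.043 without melatonin 2 and 3, and for Ndufa9 0.14 with totals, 0.012 and 0.031 without vehicle 2 and 3, and 0.021, 0.047 and 0.010 without melatonin 1, 2 and 3. Ndufa13 turned to -0.005 without vehicle 1 and -0.007 without melatonin 4, and Ndufb2 and Ndufb6 to -0.063 and -0.014 without melatonin 4.

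With principal transcript length, chosen after seeing the data, the median level per kb of mitochondrial over nuclear members was 8.06 in vehicle and 12.7 in melatonin, against 14.2 and 22.0 with the union of exons. The alternative without mt-Nd3, mt-Nd4 and mt-Nd4l, also chosen after seeing the data, changed the log2 difference of the count ratio from 0.79 to 0.78.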
